A study of Mus musculus with 8 samples.

Results

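The integrated stress response genes examined here are 10 genes of the ATF4 pathway: Atf4, Ddit3, Trib3, Chac1, Asns, Psat1, Phgdh, Slc7a5, Slc3a2 and Ppp1r15a. They were chosen by name, as every probe whose RefSeq accession belongs to one of these symbols, which gave 14 probes of the 55681 on the array. They are 10 of 14631 named genes measured above the filter on dim probes. The RNA was that of whole CD-1 embryos (an outbred mouse stock) at gestational day 9, an early stage of organ formation. The hydroxyurea group came from dams injected intraperitoneally with 400 mg/kg hydroxyurea, an inhibitor of ribonucleotide reductase that stops DNA synthesis, and the other group from dams injected with saline. Embryos were taken 3 h after the injection, and each group has 4 arrays, 2 of them on each of 2 slides. The design speaks of separate experiments, but the labels do not tie samples to an experiment, litter or dam. P-values therefore measure only the spread between these samples. Hydroxyurea and saline arrays of the same number share a slide and row, but are not known to share an experiment, litter or dam.

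The integrated stress response begins when a kinase that senses amino acid shortage, misfolded protein, viral RNA or haem deficiency phosphorylates the translation initiation factor eIF2. General translation then slows, while the mRNA of the transcription factor ATF4 is translated more, so that ATF4 is controlled to a large extent at the level of its protein, which these arrays do not measure. ATF4 binds with C/EBP-family partners to composite elements in its targets. Some targets take up and make amino acids, charge tRNAs or break down glutathione (CHAC1). Others feed back on the pathway: CHOP (Ddit3), TRIB3 and GADD34 (Ppp1r15a).

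Promoter sequences were searched for the core of such an element, only in the exact form given below, close to the start of the 10 genes. RefSeq (GRCm38.p6) gave the 250 bases before the annotated start for 9 of them, and Slc7a5 was not matched. The core of the C/EBP-ATF element was searched as TGATGNAA on both strands, where N is any base. It was found in 2 of the 9, Chac1 and Asns, and in 3.45% of 32851 mouse promoter windows of that length. In the Chac1 window it lies on the opposite strand, so that it reads TTGCATCA, and starts 193 bases before the annotated start. In the Asns window it reads TGATGAAA, on the strand of the gene, and starts 23 bases before the annotated start. The full cyclic AMP response element, TGACGTCA, which reads the same on both strands, was found in Ppp1r15a, starting 12 bases before the annotated start, and in 1.55% of all windows. The Chac1 and Trib3 windows are printed because these genes rose, and the Asns window because it holds the same motif as Chac1 in a gene that did not pass the test. Sequences run 5′ to 3′ along the gene's strand, and capitals mark the match of TGATGNAA. A window with no capitals says only that these letters are not in it.
Chac1 promoter, chr2:119350992-119351241, plus strand: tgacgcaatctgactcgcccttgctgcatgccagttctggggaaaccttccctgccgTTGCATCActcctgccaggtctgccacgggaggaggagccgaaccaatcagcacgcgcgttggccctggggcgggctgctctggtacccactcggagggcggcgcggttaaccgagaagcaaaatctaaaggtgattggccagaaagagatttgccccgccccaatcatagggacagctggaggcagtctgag
Trib3 promoter, chr2:152344061-152344310, minus strand: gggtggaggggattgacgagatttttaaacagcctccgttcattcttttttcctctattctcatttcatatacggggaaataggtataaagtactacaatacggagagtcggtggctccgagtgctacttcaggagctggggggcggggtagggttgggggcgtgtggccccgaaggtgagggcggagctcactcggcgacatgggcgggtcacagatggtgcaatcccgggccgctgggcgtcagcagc
Asns promoter, chr6:7693210-7693459, minus strand: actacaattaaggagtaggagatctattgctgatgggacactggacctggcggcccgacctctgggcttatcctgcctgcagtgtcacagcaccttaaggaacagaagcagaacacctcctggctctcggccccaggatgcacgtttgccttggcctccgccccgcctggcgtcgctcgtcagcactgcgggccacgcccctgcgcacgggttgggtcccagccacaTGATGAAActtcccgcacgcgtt

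Between 47.1% and 61.3% of the probes on an array were well above background, and 0 spots were saturated. All values below are log2 signals relative to the array's 75th percentile, so that 0 is the level of that percentile and negative values lie under it, and a difference is hydroxyurea minus saline. They serve to compare arrays for 1 probe, not 1 probe with another. Differences were tested with limma over 23121 genes and unnamed features, and those with a Benjamini-Hochberg adjusted p under 0.05 were called. All 14 probes of the 10 genes passed the filter on dim probes and were well above background on all 4 hydroxyurea and all 4 saline arrays.

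Markers of embryonic tissues were measured in both groups, and hydroxyurea 2 and hydroxyurea 3 also had high signals of 2 placental hormones. Every marker of neural tissue, heart, somites, limb and branchial arches, primitive erythroid cells and yolk sac, 6 to 8 genes a list, was above background on at least 4 arrays. Of the 6 limb and branchial arch markers 2 fell, against 3.4% of all features: Tbx5 by a difference of -0.77 (limma adjusted p 0.0388) and Dlx5 by -1.19 (limma adjusted p 0.0499). The others did not pass the test, with Msx1 at -0.54 and Alx4 at -0.23, and with positive differences for Hand2, 0.32, and Prrx1, 0.11. The summed limb and arch signal was 3.58 to 3.80 on hydroxyurea arrays, below the 3.82 to 3.99 on saline arrays. All 6 neural markers had a negative difference (median -0.46), and 0 of them passed the test. In 3 of them every hydroxyurea array lay below every saline array, which held for 7.63% of all features. Of 9 markers of decidua and trophoblast on the array, 5 were above background on at least 4 arrays, and Tpbpa and Psg18 on none. The sum of those 5, on the log2 scale, was -0.0049, 3.52, 6.11 and -0.16 on hydroxyurea 1 to 4, against 0.15, 0.27, 0.31 and -0.40 on saline 1 to 4. Prl8a2 and Prl3d1, placental prolactin-family hormones, led this sum, with Prl8a2 at -4.45, 2.40, 6.03 and -6.84 on the hydroxyurea arrays, against -7.51, -3.18, -2.03 and -5.65 on the saline arrays. Prl3d1 was at -3.29, 2.40, 1.43 and -3.91 on the hydroxyurea arrays, against -2.52, -2.39, -2.86 and -3.84 on the saline arrays. The other 3 markers in the sum differed less between the hydroxyurea arrays. Pgr was at -3.49, -4.77, -3.99 and -3.97 on hydroxyurea 1 to 4, against -6.24, -4.81, -5.54 and -5.03 on saline 1 to 4. All its hydroxyurea arrays lay above all saline arrays (difference 1.35; limma adjusted p 0.0541). Pgr was above background on 3 hydroxyurea arrays and 1 saline array. Wnt4 was at -0.92, -0.88, -0.84 and -0.85 on hydroxyurea 1 to 4. Htra3 was at -2.11, -1.58, -1.998 and -2.30, higher on hydroxyurea 2 and 3 than on 1 and 4. The saline arrays were at -2.0025 to -1.62 for Htra3. The yolk sac sum was 4.01 to 6.45 on hydroxyurea arrays, against 4.25 to 7.995 on saline arrays, with the highest value on saline 2. The part of these tissues in the results was not tested, and each of the 10 genes is given with and without hydroxyurea 2 and 3. In RNA of whole embryos, fewer cells of a type and less RNA per cell cannot be told apart.

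Of the 10 genes, 2 rose with hydroxyurea, Chac1 and Trib3, and 0 fell, while 8 did not pass the test. Over all 23121 features, 2.78% were called higher and 3.4% lower, 6.18% in all. By probe, 2 of the 14 were called higher and 0 lower, against 2.53% and 4.3% of 30677 probes. The median difference of the 10 genes was 0.09, against 0.10 over the 14631 named genes and 0.04 over all features, named or not. Chac1 and Trib3 were also the 2 of the 10 whose hydroxyurea arrays all lay above all saline arrays, which held for 7.85% of all features, and 0 of the 10 separated in the lower direction, against 7.63%. With hydroxyurea 2 and 3 left out, the count was again 2 higher and 0 lower. The median of the 10 genes was then 0.34 against 0.08 over all features, and no median was taken over named genes alone. In that fit 3787 features were called instead of 1429, 7.38% of all features higher and 9% lower.

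**Figure D1:**
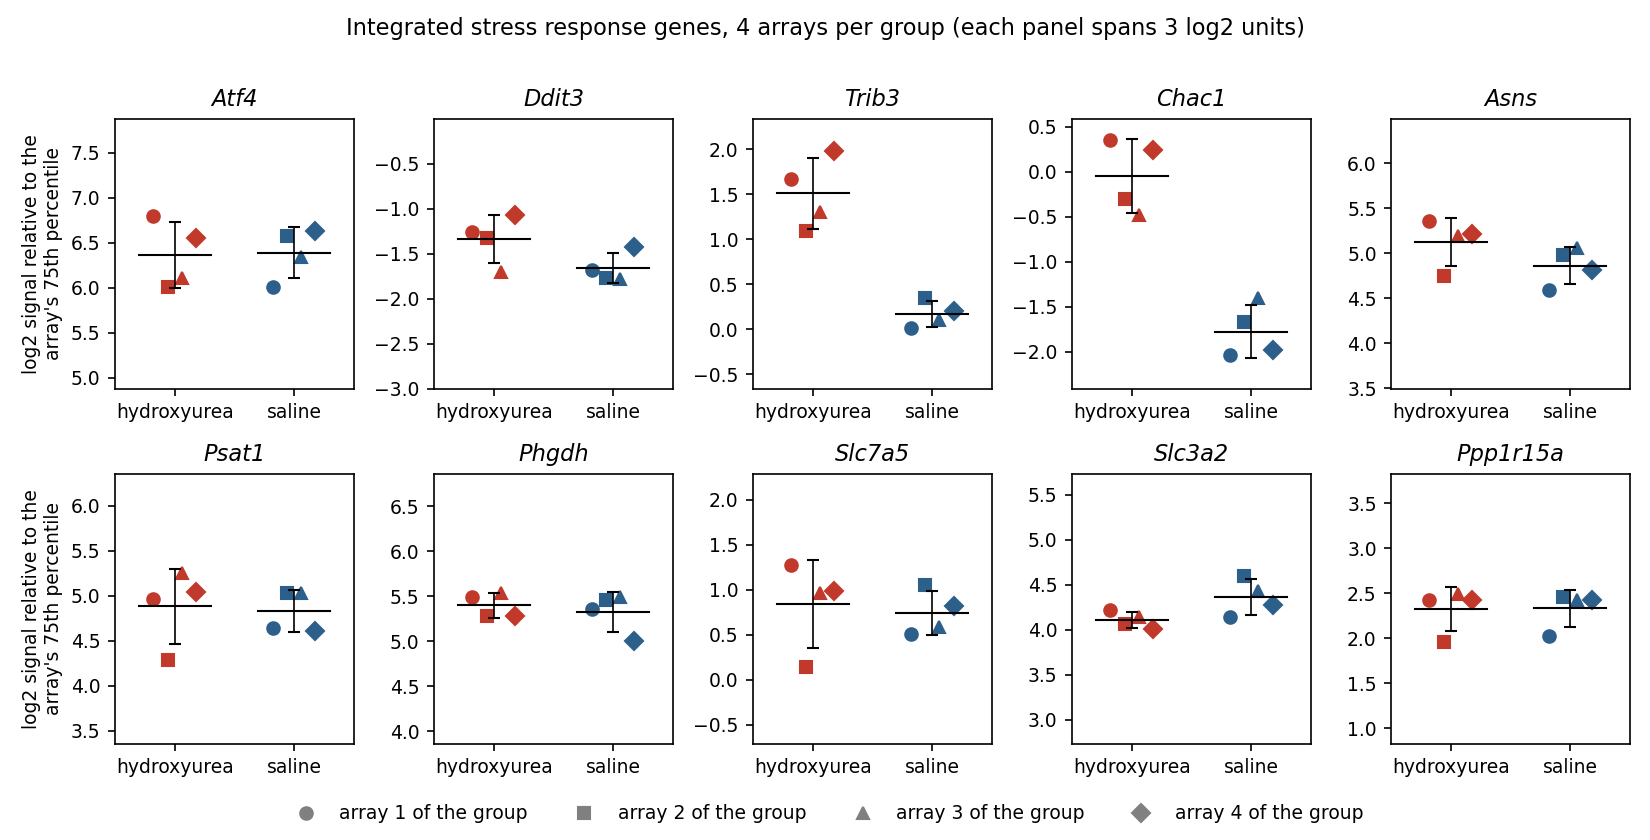
Each panel plots 1 gene, with the log2 signal relative to the array's 75th percentile on the vertical axis and the 4 hydroxyurea arrays (red) left of the 4 saline arrays (blue); marker shapes give the array number within its group, the long line is the mean and the bar its SD. In Trib3 and Chac1 every hydroxyurea array lies above every saline array, while in the other 8 genes the groups overlap.

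Chac1, an enzyme that breaks down glutathione and is a target of ATF4, had the larger rise. It was at 0.35, -0.31, -0.48 and 0.24 on hydroxyurea 1 to 4, against -2.04, -1.67, -1.41 and -1.99 on saline 1 to 4 (probe A_51_P134812, NM_026929). The groups did not overlap, and within the hydroxyurea group arrays 2 and 3 were the lower pair. The means were -0.05 ± 0.41 with hydroxyurea and -1.78 ± 0.30 with saline (SD, n = 4 each), a difference of 1.73 (SE 0.23; 95% interval 1.20 to 2.26), or 3.32-fold, with a limma adjusted p of 0.0044. By size it was number 60 of the 642 called rises. With hydroxyurea 2 and 3 left out the difference was 2.08 (limma adjusted p 0.00271).

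Trib3, a pseudokinase that ATF4 and CHOP induce and that restrains ATF4 in turn, rose as well. Its values were 1.67, 1.09, 1.30 and 1.97 on hydroxyurea 1 to 4, against 0.01, 0.35, 0.10 and 0.21 on saline 1 to 4 (probe A_55_P2009988, NM_175093). Again the groups did not overlap, and hydroxyurea 2 and 3 were again the lower pair of their group. The mean was 1.51 ± 0.39 with hydroxyurea and 0.17 ± 0.15 with saline (SD, n = 4 each), a difference of 1.34 (SE 0.21; 95% interval 0.88 to 1.81), or 2.54-fold, with a limma adjusted p of 0.00763. This was number 123 of the called rises. Without hydroxyurea 2 and 3 the difference was 1.66 (limma adjusted p 0.00277).

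Both rises were present on each slide. Chac1 differed by 1.88 on slide 1 and 1.58 on slide 2, and Trib3 by 1.20 and 1.49. With 2 arrays a group on a slide, 0 of the 10 genes passed the test on either slide alone. A term for a difference between the slides had an adjusted p of 1 for each of the 10 genes (unadjusted p 0.269 to 0.987). The authors' deposited table of differentially expressed probes was made from these same arrays and lists 1346 of the 55681 probes. It holds 2 of the 14 probes of the 10 genes, those of Chac1 and Trib3. In the authors' deposited table the mean log2 value with hydroxyurea minus that with saline is 1.72 for Chac1 and 1.34 for Trib3.

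**Figure D2:**
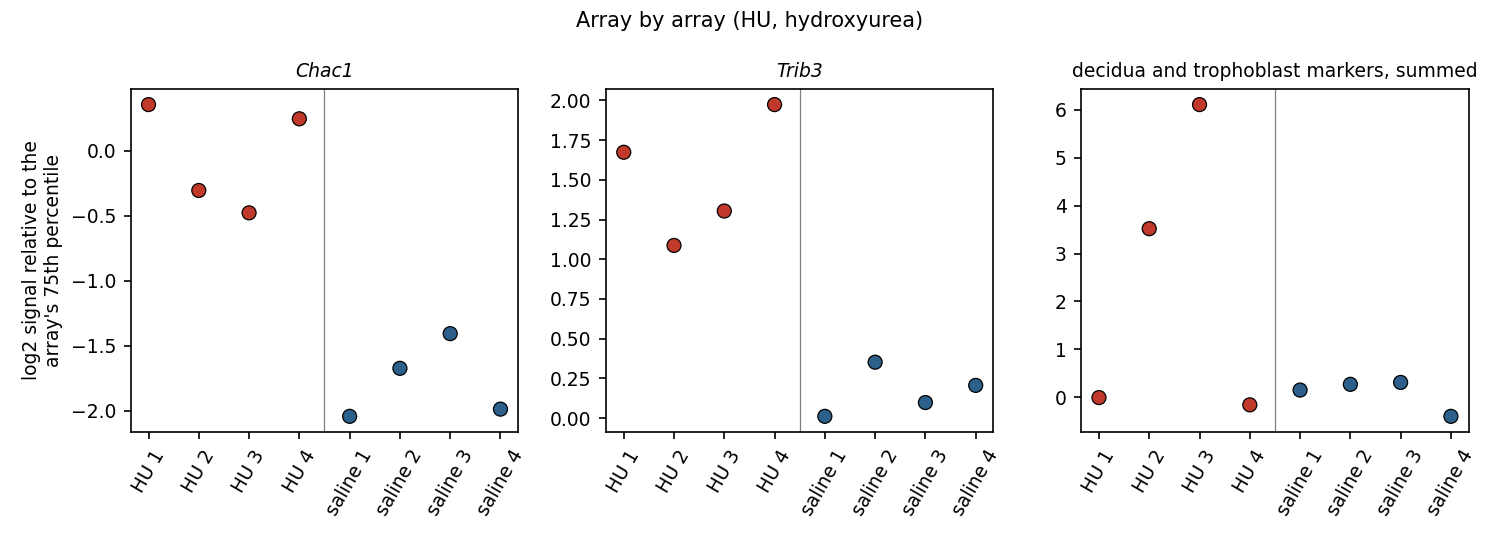
The log2 signal relative to the array's 75th percentile is plotted for each array, hydroxyurea (HU, red) left of saline (blue), for Chac1, Trib3 and the log2 of the summed signal of 5 decidua and trophoblast markers. HU 2 and HU 3, with marker sums of 3.52 and 6.11, are the lower pair of HU arrays for both genes and still lie above all saline arrays. Prl8a2 and Prl3d1 led these 2 sums.

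Neither of the transcription factors, Atf4 and Ddit3, passed the test. Atf4 RNA was at 6.80, 6.01, 6.11 and 6.55 on hydroxyurea 1 to 4, against 6.01, 6.58, 6.34 and 6.64 on saline 1 to 4 (probe A_55_P1979728). The arrays of both groups covered nearly the same range. The difference was -0.02 (SE 0.22; 95% interval -0.52 to 0.48; limma adjusted p 0.961), so an increase of the size seen in Chac1 or Trib3 lay outside the interval. It was 0.28 without hydroxyurea 2 and 3, of the opposite sign, with a limma adjusted p of 0.402. A second Atf4 probe, A_51_P464238, differed by -0.08 (SE 0.32; limma adjusted p 0.907). The 2 probes ordered the arrays differently: hydroxyurea 1 was the highest of its group on the first, at 6.80, and the lowest on the second, at 0.43, whereas hydroxyurea 2 was the lowest on the first, at 6.01, and the highest on the second, at 1.67.

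Ddit3, which encodes CHOP, a factor that acts with ATF4 under prolonged stress, had the largest positive difference of the 8 genes that did not pass. It was at -1.26, -1.33, -1.71 and -1.07 on hydroxyurea 1 to 4, against -1.68, -1.77, -1.78 and -1.42 on saline 1 to 4 (probe A_52_P533146). Of the 4 hydroxyurea arrays 3 lay above every saline array, and hydroxyurea 3 lay among them. The difference was 0.32 (SE 0.17; 95% interval -0.07 to 0.71; limma adjusted p 0.285), and without hydroxyurea 2 and 3 it was 0.50 (limma adjusted p 0.093).

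Ppp1r15a encodes GADD34, the stress-induced subunit that brings a phosphatase to eIF2 and ends the response, and its promoter window holds the cyclic AMP element. Its signal was 2.43, 1.96, 2.49 and 2.43 on hydroxyurea 1 to 4, against 2.03, 2.46, 2.43 and 2.43 on saline 1 to 4. In each group 1 array, hydroxyurea 2 and saline 1, lay below the other 3, which were close together at the same level in both groups. The difference was -0.01 (SE 0.18; 95% interval -0.41 to 0.39; limma adjusted p 0.978), with a positive sign, 0.09, without hydroxyurea 2 and 3.

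Of the genes for amino acid synthesis, 0 of 3 passed the test. Asns, asparagine synthetase, was at 5.36, 4.74, 5.19 and 5.22 on hydroxyurea 1 to 4, against 4.59, 4.97, 5.05 and 4.81 on saline 1 to 4. Hydroxyurea 2 lay within the saline range and the other 3 above it. The difference was 0.27 (SE 0.18; 95% interval -0.14 to 0.68; limma adjusted p 0.385), and 0.43 without hydroxyurea 2 and 3 (limma adjusted p 0.149). The Asns window holds a TGATGNAA match, as does that of Chac1, and a link between the match and the response was not tested.

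Phgdh and Psat1 encode the first and the second enzyme of serine synthesis. Phgdh was at 5.49, 5.28, 5.54 and 5.28 on hydroxyurea 1 to 4, against 5.36, 5.46, 5.49 and 5.01 on saline 1 to 4, and differed by 0.07 (SE 0.16; 95% interval -0.29 to 0.43; limma adjusted p 0.822). Psat1 was at 4.96, 4.29, 5.25 and 5.04 on hydroxyurea 1 to 4, against 4.64, 5.03, 5.03 and 4.61 on saline 1 to 4, and differed by 0.06 (SE 0.23; 95% interval -0.45 to 0.57; limma adjusted p 0.906). In both genes the groups overlapped, and in Psat1 hydroxyurea 2 was below every other array. Second probes of Phgdh and Psat1 differed by 0.27 (limma adjusted p 0.329) and 0.16 (limma adjusted p 0.793). Without hydroxyurea 2 and 3 the first probes differed by 0.06 for Phgdh (limma adjusted p 0.86) and 0.17 for Psat1 (limma adjusted p 0.563).

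Slc7a5 and Slc3a2 encode the light and the heavy chain of LAT1, a transporter that takes up large neutral amino acids. Slc7a5 was at 1.28, 0.14, 0.97 and 0.98 on hydroxyurea 1 to 4, against 0.51, 1.06, 0.59 and 0.82 on saline 1 to 4, and differed by 0.10 (SE 0.25; 95% interval -0.46 to 0.66; limma adjusted p 0.843). Slc3a2 was at 4.22, 4.06, 4.14 and 4.01 on hydroxyurea 1 to 4, against 4.15, 4.60, 4.43 and 4.27 on saline 1 to 4, and differed by -0.25 (SE 0.15; 95% interval -0.59 to 0.08; limma adjusted p 0.318; -0.14 with median centring). The hydroxyurea arrays thus spanned the whole saline range for Slc7a5, whereas for Slc3a2 3 of them lay below every saline array and hydroxyurea 1 lay inside the saline range. A second Slc7a5 probe differed by -0.11 (limma adjusted p 0.798), against 0.10 on the first. Without hydroxyurea 2 and 3 the first Slc7a5 probe differed by 0.39 (limma adjusted p 0.232) and Slc3a2 by -0.25 (limma adjusted p 0.378).

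Within the hydroxyurea group, 7 of the 10 genes were lowest on hydroxyurea 2: Atf4, Trib3, Asns, Psat1, Phgdh, Slc7a5 and Ppp1r15a. Ddit3 and Chac1 were lowest on hydroxyurea 3, and Slc3a2 on hydroxyurea 4. These are the arrays with high Prl8a2 and Prl3d1 signals, apart from hydroxyurea 4. The part of placental RNA in these values was not tested. The order is not particular to the 10 genes. Lars, Xpot, Gars, Hspa5 and Hsp90b1, from the lists described below, were also lowest of their group on hydroxyurea 2, whereas Sesn2 and Pdia4 were highest there. A share over all features is not given for this count, so it is not read as a trait of these genes.

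**Figure D3:**
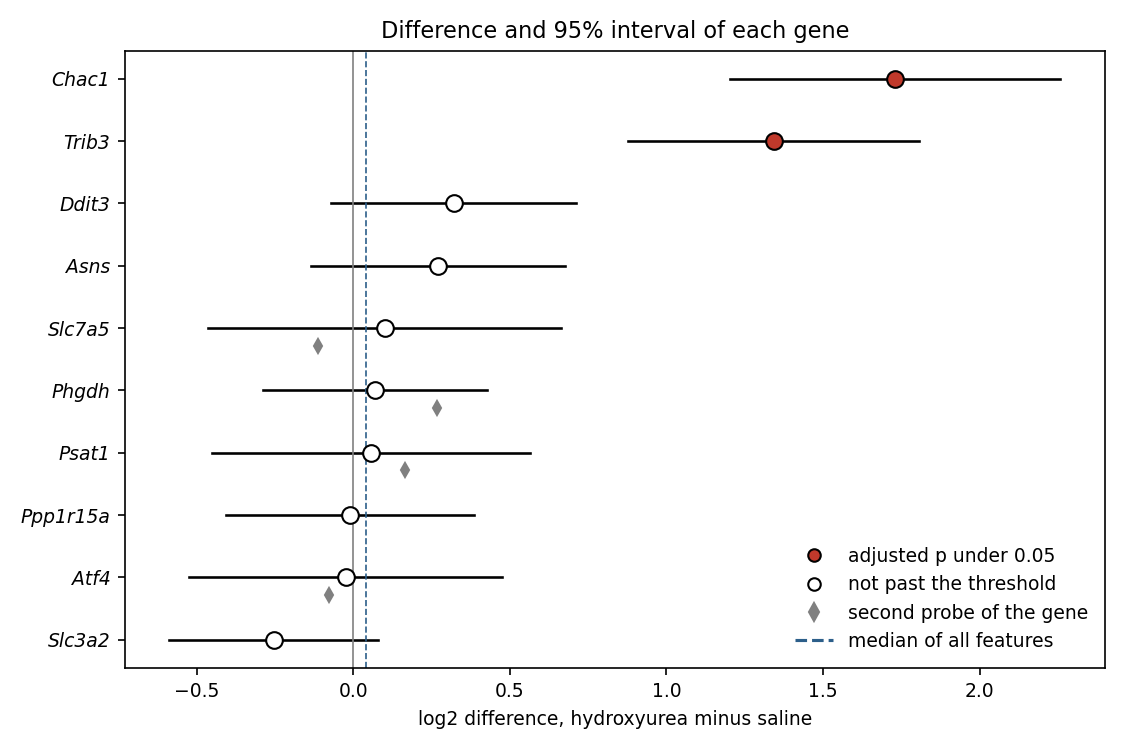
The horizontal axis is the log2 difference, hydroxyurea minus saline, of each of the 10 genes with its 95% interval (n = 4 arrays each); filled points have an adjusted p under 0.05, diamonds are second probes of a gene, and the dashed line is the median of all features, 0.04. The intervals of Chac1 and Trib3 start at 1.20 and 0.88, and the other 8 include 0.

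The genes whose 8-array profile was most like that of Atf4, by the root-mean-square difference after the saline mean was subtracted, were Zfp82 (0.09), Pptc7 (0.09) and Cstdc5 (0.10). For Ddit3 they were Krt90 (0.05), Dvl1 (0.07) and Polq (0.08). None of these 6 passed the test, with differences of -0.01, 0.03 and 0.10 for the first 3 and 0.32, 0.33 and 0.39 for the last 3. Cstdc5 was above background on 2 hydroxyurea and 4 saline arrays.

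Beyond the 10 genes, the pathway was described with 7 lists of other genes, drawn up by function but with earlier results of these data known. The list with the most calls was that of ATF4 partners and other stress-induced regulators, in which 6 of 21 measured genes rose and 0 fell, against 2.78% and 3.4% of all features, with a median difference of 0.34. Several of its genes, such as Gadd45a, Sesn2 and Gdf15, are also known targets of p53. Ddit4, an inhibitor of mTORC1 signalling, was at 6.10, 5.70, 5.47 and 6.19 on hydroxyurea 1 to 4, against 4.45, 4.26, 4.25 and 4.26 on saline 1 to 4, a difference of 1.56 (SE 0.19; limma adjusted p 0.00226). Sesn2, a leucine sensor that also restrains mTORC1, was at 3.33, 3.88, 3.40 and 3.74 on hydroxyurea 1 to 4, against 1.98, 2.06, 2.25 and 2.03 on saline 1 to 4, a difference of 1.50 (SE 0.17; limma adjusted p 0.00169). In both genes every hydroxyurea array lay above every saline array by a wide gap. Nfe2l2, which encodes NRF2, the main activator of antioxidant genes, differed by 0.86 (SE 0.14; limma adjusted p 0.00858). Without hydroxyurea 2 and 3 these 3 differed by 1.84, 1.45 and 0.98, and 6 genes of the list rose, against 7.38% of all features in that fit.

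The other calls of that list were less stable, and these genes and the ones in the next sentence were named after their values were seen. Gadd45a, a growth arrest gene, rose by 0.82 (limma adjusted p 0.0203), and Nupr1, a stress-induced chromatin protein, by 0.88 (limma adjusted p 0.0402). Gdf15, a stress-induced secreted factor, rose by 2.09 (limma adjusted p 0.0244), but was above background on 3 hydroxyurea arrays and 1 saline array, and with normexp background correction the difference was 0.57 (limma adjusted p 0.0629). Gadd45a, Nupr1 and Gdf15 each lost the call when hydroxyurea 1 or 4 or saline 1 or 3 was left out, with limma adjusted p of up to 0.0682, 0.117 and 0.0737 in these fits. Gadd45a also lost it without saline 2 or 4, Nupr1 without hydroxyurea 3 or saline 2, and Gdf15 without saline 4. With normexp the Nupr1 difference was 0.48 (limma adjusted p 0.117), and none of these 3 genes was called without the filter. Atf3, a factor that ATF4 induces, differed by 0.61 (limma adjusted p 0.15; 0.40 with normexp), and Cebpb, a binding partner of ATF4, by 0.63 (limma adjusted p 0.128). In both, 3 of the 4 hydroxyurea arrays lay above every saline array.

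**Figure D4:**
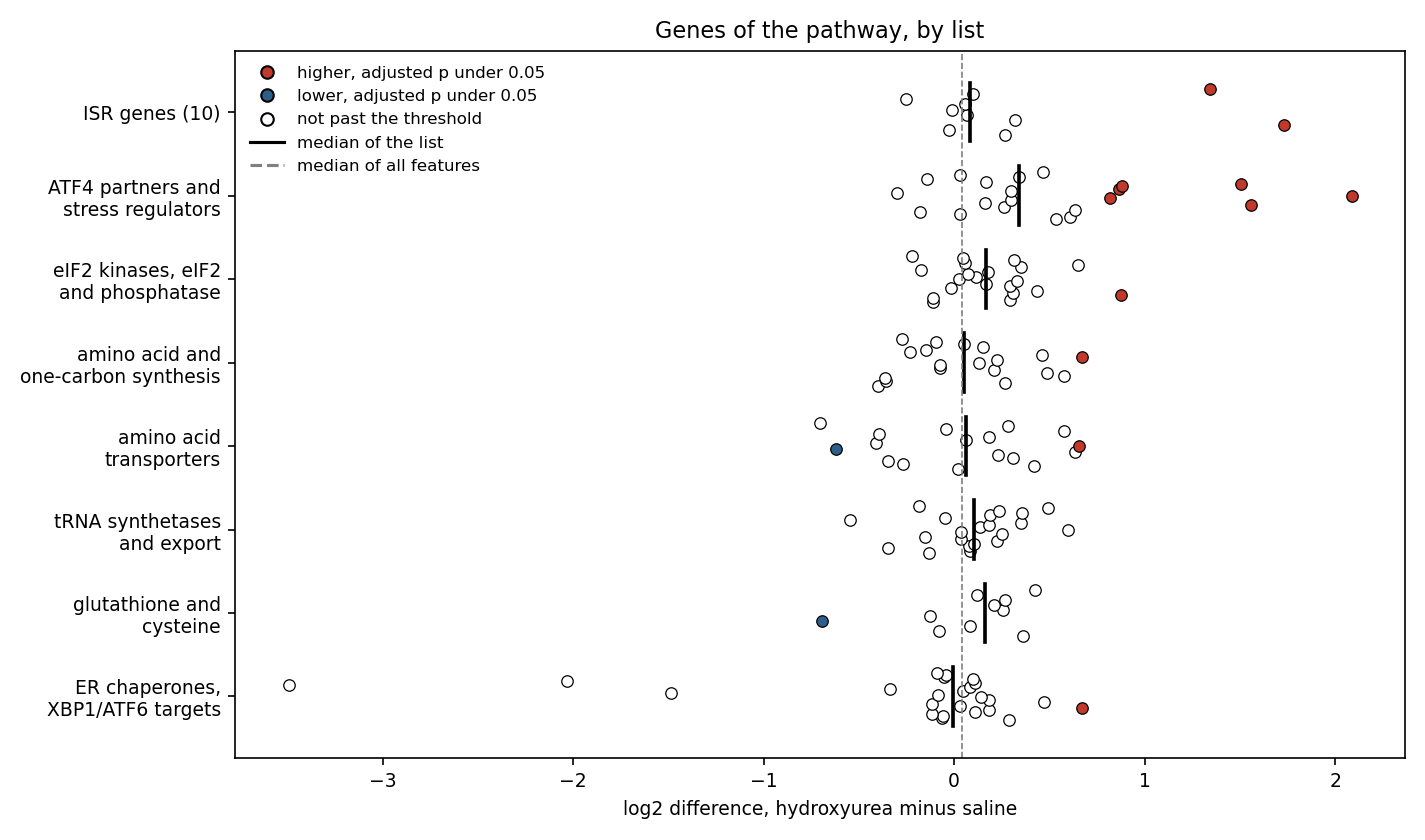
Each point is 1 gene at its log2 difference, hydroxyurea minus saline, in the 10 integrated stress response genes (ISR) and in 7 lists of other pathway genes; filled points passed the test, bars are list medians and the dashed line the median of all features. The list of ATF4 partners and stress regulators holds 6 rises, each other list at most 1 rise and 1 fall, and the leftmost points are the endoplasmic reticulum genes Pdia4, Sdf2l1 and Hyou1.

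Upstream of ATF4, 1 of 21 measured genes for the eIF2 kinases, eIF2, its exchange factor eIF2B and its phosphatase rose and 0 fell, against 2.78% and 3.4% of all features (median difference 0.17). This was Eif2ak2, the double-stranded RNA kinase PKR, at 0.88, 0.37, 0.63 and 0.84 on hydroxyurea 1 to 4, against -0.41, -0.05, -0.12 and -0.19 on saline 1 to 4, a difference of 0.87 (SE 0.16; limma adjusted p 0.0169). The groups did not overlap, but the limma adjusted p was 0.0534 to 0.0646 when hydroxyurea 1, hydroxyurea 4 or saline 1 was left out, 0.0528 with slide and row as a block and 0.0585 without the filter. The kinases of the amino acid and the endoplasmic reticulum branch, named after their values were seen, did not pass, with differences of 0.43 for Eif2ak4, which encodes GCN2 (limma adjusted p 0.314), and 0.31 for Eif2ak3, which encodes PERK (limma adjusted p 0.364). With 1 array left out, the Eif2ak4 difference ran from 0.189 (without hydroxyurea 1) up to 0.623 (without hydroxyurea 2) and that of Eif2ak3 from 0.181 (without saline 1) up to 0.442 (without hydroxyurea 2). Without hydroxyurea 2 and 3, Eif2ak4 differed by 0.80 (limma adjusted p 0.0516) and Eif2ak3 by 0.51 (limma adjusted p 0.134). Impact, an inhibitor of GCN2 activation, differed by 0.65 (limma adjusted p 0.0681) with every hydroxyurea array above every saline array. Without hydroxyurea 2 alone its limma adjusted p was 0.0146, at a difference of 0.79, and as the mean of its probes the difference was 0.31 (limma adjusted p 0.284). In the fit without hydroxyurea 2 and 3, 2 genes of the list rose and 0 fell, against 7.38% and 9% of all features.

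The metabolic arms of the pathway held 2 rises and 2 falls among 46 measured genes, and the shares over all features are 2.78% and 3.4%. In amino acid and one-carbon synthesis 1 of 19 measured genes rose and 0 fell (median 0.05), namely Mthfd1, a folate enzyme of purine and thymidylate supply, by 0.67 (limma adjusted p 0.0407). Among amino acid transporters 1 of 17 rose and 1 fell (median 0.06). Slc43a1, a transporter of large neutral amino acids, rose by 0.65 (limma adjusted p 0.0432), and Slc38a7, a lysosomal glutamine transporter, fell by 0.62 on the log2 scale (limma adjusted p 0.04). Of genes for glutathione breakdown and cysteine supply 0 of 10 rose and 1 fell (median 0.16), Gclm, the modifier subunit of the enzyme that starts glutathione synthesis, by a difference of -0.69 (limma adjusted p 0.0445). In each of these 4 genes the groups did not overlap. Each lost the call with median centring, without the filter and with the slide as a block, and when hydroxyurea 1, 3 or 4 or saline 1, 2 or 3 was left out (all but Slc38a7 also without saline 4), with limma adjusted p of up to 0.119 for Mthfd1, 0.135 for Slc43a1, 0.11 for Slc38a7 and 0.13 for Gclm in fits without 1 array. When hydroxyurea 2 and 3 were both left out, the synthesis and transporter lists held 3 rises and 0 falls each, and the glutathione list 0 of either, against 7.38% and 9% of all features.

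None of 21 genes for cytosolic tRNA synthetases and tRNA export passed the test, 0 higher and 0 lower, against 2.78% and 3.4% of all features (median 0.11). The lowest p belonged to Lars, leucyl-tRNA synthetase, at 5.18, 4.39, 4.78 and 4.95 on hydroxyurea 1 to 4, against 4.22, 4.18, 4.27 and 4.24 on saline 1 to 4. All hydroxyurea arrays lay above all saline arrays, with hydroxyurea 2 the nearest to them. The difference was 0.60 (SE 0.18; limma adjusted p 0.0842), and 0.74 without hydroxyurea 2 alone (limma adjusted p 0.0141). Xpot, an exporter of tRNA from the nucleus, differed by 0.49 (limma adjusted p 0.167), and by 0.66 without hydroxyurea 2 (limma adjusted p 0.0304). Its difference was 0.36 without hydroxyurea 1 (limma adjusted p 0.359) and 0.22 as the mean of its probes (limma adjusted p 0.546). Without hydroxyurea 2 and 3, 2 of the 21 genes rose, against 7.38% of all features, Lars and Xpot, with differences of 0.84 and 0.78.

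Endoplasmic reticulum chaperones and targets of XBP1 and ATF6, the other arms of the unfolded protein response, were taken as a contrast to the ATF4 genes. Of 24 measured genes 1 rose and 0 fell, against 2.78% and 3.4% of all features (median -0.0035). Edem1, which directs misfolded glycoproteins to degradation, rose by 0.67 (SE 0.15; limma adjusted p 0.0342), and lost the call with median centring, with the slide as a block, and when hydroxyurea 1 or 4 or any 1 of the 4 saline arrays was left out (limma adjusted p of up to 0.112). Hspa5, the chaperone BiP and the usual marker of this response, differed by -0.08 (SE 0.21; limma adjusted p 0.84); it and the genes in the next paragraph were named after their values were seen.

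In 3 genes of that list the hydroxyurea arrays were spread far apart. Pdia4, a disulfide isomerase, was at -2.42, 1.99, 0.16 and -3.62 on hydroxyurea 1 to 4, against 2.57, 2.58, 2.63 and 2.31 on saline 1 to 4. All hydroxyurea arrays lay below all saline arrays, far below on hydroxyurea 1 and 4 and nearest to them on hydroxyurea 2. The difference was -3.49 (SE 1.02; limma adjusted p 0.077), with a limma adjusted p of 0.0111 at -4.48 without hydroxyurea 2. Sdf2l1, a partner of endoplasmic reticulum chaperones, was at -0.11, 2.47, 2.05 and -1.35 on hydroxyurea 1 to 4, against 2.68, 3.02, 2.76 and 2.71 on saline 1 to 4 (difference -2.03; limma adjusted p 0.132). Hyou1, a chaperone of the same compartment, differed by -1.49 (limma adjusted p 0.0909). Without hydroxyurea 2 alone, the limma adjusted p was 0.0399 for Sdf2l1, at a difference of -2.60, and 0.00778 for Hyou1, at -1.96. Without hydroxyurea 4 the differences were -2.61 for Pdia4 (limma adjusted p 0.162), -1.33 for Sdf2l1 (limma adjusted p 0.256) and -1.17 for Hyou1 (limma adjusted p 0.224). With normexp Pdia4 passed at -2.82 (limma adjusted p 0.0186), as it did with median centring and an intensity trend, and Hyou1 differed by -0.91 (limma adjusted p 0.0612). Without hydroxyurea 2 and 3 all 3 passed the test, with differences of -5.54, -3.53 and -2.35. Among the hydroxyurea arrays, those with the lower Pdia4 and Sdf2l1 signal are those with low Prl8a2 and Prl3d1 signals. The part of placental RNA in this was not tested.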

How the data were processed

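The scanner files, as deposited, give the intensity of each spot in 1 colour (Cy3), background-subtracted by Agilent Feature Extraction 11.5.1.1 per the file headers and the submitters' processing notes. The authors' deposited table holds log2 values of 1346 probes, centred per probe; how they were normalized and selected is not stated there.

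Outlier spots (151 to 315 of 59305 per array) were left out, log2 processed signals averaged per probe, and each array's 75th percentile over non-control probes subtracted. Probes well above background on at least 4 arrays and valued on all 8 were kept (30677). The probe of highest mean stood for its gene, which gave 23121 features, 14631 of them named through RefSeq accessions (GRCm38.p6, names only). The groups were compared in R 4.3.3 by limma 3.58.1 (eBayes on an lmFit model, no covariate, two-sided p, Benjamini-Hochberg over all features, threshold 0.05). Second probes were fitted on the 30677 probes. The number of arrays limits the precision. The steps were tested on simulated data.

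The 10 genes and all lists were chosen with earlier results of these data known. Named genes were the 10, per list the called genes of lowest p (at most 3 per direction, or the 2 of lowest p when none was called), and the 3 most similar profiles to Atf4 and to Ddit3; further genes are marked in the text. Alternatives were normexp (offset 50, on median signals, since mean signals were not among the columns used), quantile normalization, median centring, no filter, a filter on all 8 arrays, slide and row as blocks, each slide alone, the mean of a gene's probes, an intensity trend, each array left out in turn and, added after the data were seen, hydroxyurea 2 and 3 left out together.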

Additional observations from a re-analysis of the deposited data

Results flagged for a closer look

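Among groups of 4 arrays, a lone value far from the other 3 is found by chance in about 1 in 20 groups. By that measure 7 values stood apart in 86 groups, those of the 10 genes, their second probes and the other named genes, each with its hydroxyurea and its saline arrays. Ppp1r15a had 1 such array in each group, hydroxyurea 2 at 1.96 and saline 1 at 2.03, both below the rest of their group. The second Phgdh probe (A_55_P2143041) was low on hydroxyurea 2, at 4.92, and the second Psat1 probe (A_66_P121495) was low on hydroxyurea 4, at 0.47. Ddit4 was higher on saline 1, at 4.45, than on the other saline arrays. Edem1 was lower on saline 3, at 0.73, and Krt90 higher on saline 4, at -3.23, than on the other saline arrays. All are log2 signals relative to the array's 75th percentile.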

How the results depend on the processing

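Of the 10 genes, 2 were called higher, Chac1 and Trib3, and 0 lower under every alternative except each slide alone, where 0 were called (also 0 of the 14 probes). Across fits that left out 1 array, Chac1 differed by 1.60 to 1.87 (limma adjusted p 0.00518 to 0.0191) and Trib3 by 1.19 to 1.48 (0.00474 to 0.0295). Sesn2, Ddit4 and Nfe2l2 likewise lost the call only on each slide alone. The 1429 features called over the whole array depended more on the setting, with 615 without the filter, 59 on slide 1 alone, 3 on slide 2 alone, 524 to 3739 with 1 array left out and 3787 without hydroxyurea 2 and 3. Median centring moved the median of all features to 0.16. No paired analysis was possible because the labels give no replicate numbers, and array numbers follow accession order.

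Genes near 0 changed sign. Atf4 was 0.0074 with quantile normalization, 0.0938 with median centring, 0.109 on slide 1, -0.167 to 0.0943 with 1 array left out and 0.282 without hydroxyurea 2 and 3. Ppp1r15a was 0.107 with median centring, 0.0333 on slide 2, -0.113 to 0.112 with 1 array left out and 0.091 without hydroxyurea 2 and 3. Psat1 was -0.0448 with normexp, -0.211 on slide 1 and -0.0647 to 0.256 with 1 array left out. Phgdh was -0.0224 on slide 1 and -0.0362 to 0.124 with 1 array left out. Slc7a5 was -0.0708 on slide 1, -0.0061 as the mean of its probes and -0.046 to 0.335 with 1 array left out. The second Atf4 probe (A_51_P464238) was 0.0386 with median centring, 0.03 on slide 1 and -0.315 to 0.0986 with 1 array left out. The second Slc7a5 probe (A_55_P2017972) was 0.0058 with median centring, 0.149 on slide 2 and -0.25 to 0.0606 with 1 array left out. The second Psat1 probe (A_66_P121495) was -0.0708 to 0.387 with 1 array left out and -0.0549 without hydroxyurea 2 and 3. Zfp82 was 0.112 with median centring, 0.0434 on slide 1, -0.125 to 0.117 with 1 array left out and 0.255 without hydroxyurea 2 and 3. Pptc7 was -0.0211 with quantile normalization, -0.0076 as the mean of its probes and -0.0797 to 0.151 with 1 array left out. Cstdc5 was -0.0089 on slide 2 and -0.0416 to 0.21 with 1 array left out. Hspa5 was 0.0353 with median centring, 0.0317 on slide 2 and -0.227 to 0.0821 with 1 array left out. The cause of these changes was not tested.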
